A study of Caenorhabditis elegans with 5 samples.

Results

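Some LIN-42 peaks were called with the antibody against LIN-42 and in a single LIN-42::GFP replicate, but not in the other replicate. Such peaks are called sites below, and binding at them was not tested beyond these calls. They were taken as the LIN-42::GFP peaks of either replicate that overlapped no peak of the other replicate by even 1 bp but did overlap a peak of the endogenous LIN-42 library by 1 bp or more. This gave 92 of the 946 peaks of LIN-42::GFP replicate 1 and 93 of the 2580 peaks of replicate 2, together 185 peaks, with 178 of the 1128 endogenous LIN-42 peaks as their partners (4654 peaks in the 3 lists in all). Of the partners, 89 overlapped such single-replicate peaks of replicate 1 only, 86 of replicate 2 only, and 3 of both replicates in different places. Some partners also overlapped GFP peaks that both replicates shared, as given below.

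LIN-42 is the *C. elegans* relative of PERIOD, the protein that in flies and mammals represses its own transcription within the circadian clock. The gene belongs to the heterochronic pathway, in which a mutation makes larval cells adopt the fate of an earlier or a later stage, and its transcript rises and falls with every larval molt. In ChIP-seq, chromatin held by a protein is precipitated with an antibody and sequenced, and a peak is a stretch where the sequenced tags pile up above the background.

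The 3 ChIP libraries and the 2 input libraries all came from whole-animal extracts of the strain HML214, which carries GFP-tagged, functional lin-42, grown at 20 °C and collected as late L4 larvae. LIN-42::GFP was precipitated with anti-GFP (abcam 290) in 2 replicates from separate extracts, and the endogenous library, which had no replicate, was made with a rabbit antibody raised against a peptide found in LIN-42A and LIN-42B. That antibody was used on chromatin with GFP-tagged LIN-42 as well, so "endogenous" names the antibody and not an untagged animal. No library from animals without the tag or without lin-42 was analysed here. After the authors kept 1 tag per position, 38236 of 833169 aligned tags were left in replicate 1, 43991 of 4334100 in replicate 2 and 122089 of 2268716 in the endogenous library, and a peak needed at least 4, 4 and 5 tags respectively. The headers of the replicate 1 and 2 lists name different input libraries as control, with 3320847 tags kept for replicate 1 and 1697123 for replicate 2. That of the endogenous list names none, although the study's methods describe calling all peaks against input. A list without a peak at some site says only that the tags there were too few, or not far enough above the background, to be called. Coordinates below are those of ce10.

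Whether a peak was called follows from its tags, its fold and its score, so the sites were chosen by these values, which are given as a description without any test. An endogenous partner was found for 16.7% of the 551 replicate 1 peaks that replicate 2 lacked (95% Wilson interval 13.8% to 20.0%) and for 4.26% of the 2181 replicate 2 peaks that replicate 1 lacked (3.49% to 5.20%). The intervals cover counting error only. In the whole lists, 42.4% of replicate 1 peaks and 15.8% of replicate 2 peaks overlapped an endogenous peak, and 41.8% and 15.5% overlapped a peak of the other replicate. Seen from the endogenous list, 15.8% of its peaks were partners, against 26.8% (302 peaks) at a GFP peak of both replicates, 58.2% (657) at no GFP peak and 41.8% at a GFP peak of either replicate. The label of a single replicate held for the GFP peaks but not for every partner, since 10 of the 178 endogenous peaks overlapped peaks of both replicates. Of these 10, 8 also overlapped a GFP peak that both replicates shared. Among all 178 partners, 9 overlapped such a shared GFP peak.

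The peaks with a partner had more tags than those without. Replicate 1 peaks with a partner held 4 to 49 tags with a median of 7, and replicate 2 peaks held 4 to 71 tags, also with a median of 7. The single-replicate peaks without an endogenous peak had a median of 4 tags in both lists, and the peaks found in all 3 lists had medians of 13 and 12. By tags, the sites thus stood between those groups in both replicates. By fold they did not. The median fold of replicate 2 sites was 43.3, against 82.66 without an endogenous peak and 63.77 in all 3 lists. In replicate 1 it was 97.06, the same as without an endogenous peak, against 169.4 in all 3 lists. The median score of replicate 2 sites, 102.07, was also the lowest, against 127.31 and 207.37. In replicate 1 the scores were 125.16, 113.22 and 239.19. Of the 185 peaks, 41 were at the minimum of 4 tags, 21 of them in replicate 1 and 20 in replicate 2.

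Within each list, a partner was found more often at peaks of more tags. In replicate 1 the share of single-replicate peaks with an endogenous peak was 6.89% at 4 tags (21 of 305), 7.92% at 5 tags, 29.4% at 6 or 7 tags, 42.6% at 8 to 11 tags, 80.0% at 12 to 15 tags (12 of 15) and 73.3% at 16 or more (11 of 15). In replicate 2 it was 1.71% at 4 tags (20 of 1170), 2.15%, 6.07%, 19.5%, 31.8% (7 of 22) and 63.2% at 16 or more (12 of 19). The highest bins are small and their intervals wide, from 48.0% to 89.1% and from 41.0% to 80.9%. In the same 2 bins, peaks shared by the replicates had an endogenous peak in 89.7% and 85.7%. At 4 tags the distance between the groups was larger, with 51.7% and 51.2% of the shared peaks. Of the 20 single-replicate peaks with most tags, 15 in replicate 1 and 12 in replicate 2 had an endogenous partner. Single-replicate peaks with a partner were also wider. Their median width was 156 bp against 133 bp without one in replicate 1, and 214 bp against 115 bp in replicate 2. A wider peak meets an overlap of 1 bp more easily and holds more tags, and tags and width were not separated here.

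**Figure D1:**
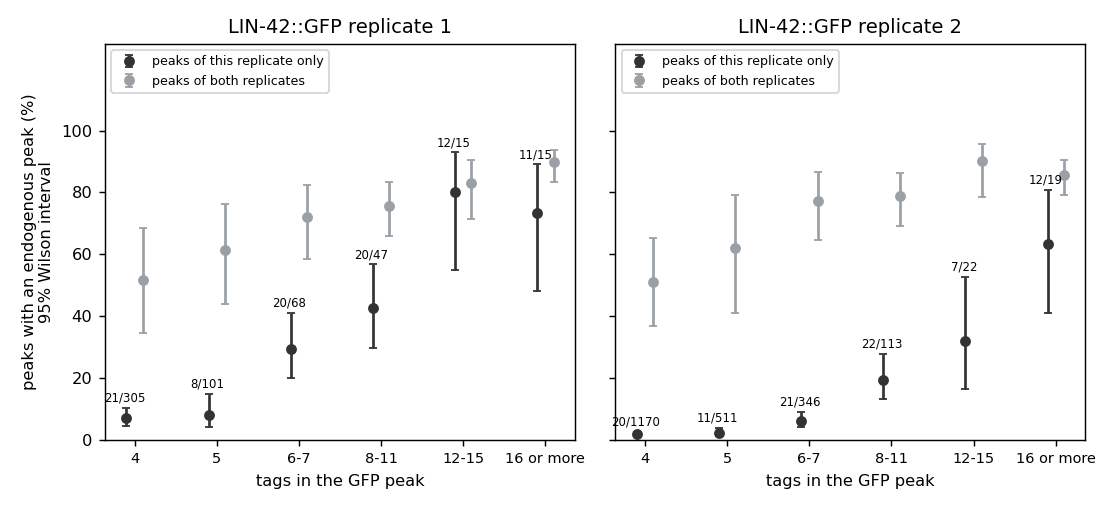
Share of LIN-42::GFP peaks that overlapped an endogenous LIN-42 peak (%), by the number of tags in the GFP peak, for peaks of a single replicate (black, with the counts) and for peaks of both replicates (grey). Bars are 95% Wilson intervals. The black points rise from 6.89% to 73.3% in replicate 1 and from 1.71% to 63.2% in replicate 2, and at 4 tags they lie far below the grey ones.

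The endogenous partners showed the same middle position by tags. Partners had 5 to 580 tags with a median of 9.5, endogenous peaks at GFP peaks of both replicates had a median of 16, and those at no GFP peak had a median of 5. Among the 20 endogenous peaks of most tags 5 were partners, and among the 20 of largest fold 1 was, while 15.8% of all endogenous peaks were partners. In each GFP list, 1 of the 20 peaks of largest fold was a single-replicate peak with a partner. Such peaks made up 92 of all 946 in replicate 1 and 93 of all 2580 in replicate 2. The number of tags in a GFP peak and in its partner had a Spearman correlation of 0.43 over the 92 peaks of replicate 1 and of 0.44 over the 93 of replicate 2. Tags also grow with the width of a peak, and without the wide endogenous peaks described next the values were 0.40 (81 peaks) and 0.11 (60 peaks).

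**Figure D2:**
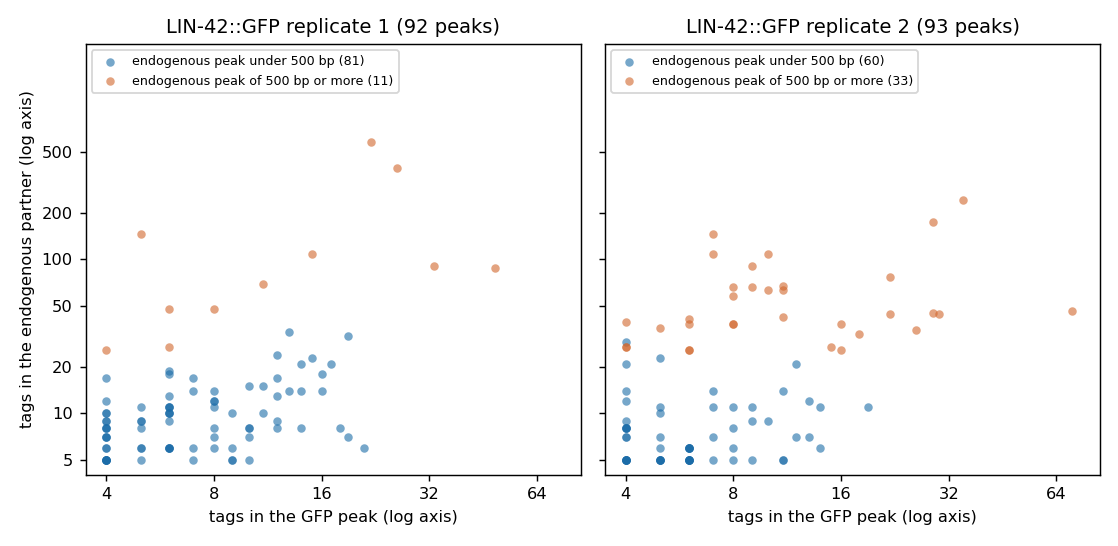
Tags in each single-replicate LIN-42::GFP peak against tags in its endogenous partner, both on log axes, with partners under 500 bp in blue and of 500 bp or more in orange. The orange points lie at 26 or more endogenous tags in both replicates, and the blue ones at 34 or fewer.

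The partners were of different shapes, which the plot of endogenous width against fold shows. A width of 500 bp, chosen after the values were seen, was used to separate them. Of the 185 GFP peaks, 141 had a narrower partner and 44 had a partner of 500 bp or more. The partner was wide at 11 of 92 peaks in replicate 1 (95% Wilson interval 6.81% to 20.2%). In replicate 2 it was wide at 33 of 93 (26.5% to 45.6%). Some GFP peaks shared a partner and neighbouring peaks are not independent, which the intervals do not count. Counted once per GFP peak, the narrower partners had a median of 8 tags and a fold of 39.7 over background. The wide ones, counted likewise, had a median of 47 tags but a fold of 8.27. The GFP peaks differed in the same direction in each list, with medians of 97.06-fold at narrow and 19.7-fold at wide partners in replicate 1, and of 51.9-fold and 22.5-fold in replicate 2. When every peak within 2000 bp of another of its own list was removed and the sites were chosen anew, only 3 had a wide partner.

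Wide peaks occurred elsewhere in the endogenous list too. They made up 20.8% of the partners (37 of 178), 17.5% of the endogenous peaks at GFP peaks of both replicates (53 of 302), 3.81% of those at no GFP peak (25 of 657) and 9.49% of the whole list (107 of 1128). The width of an endogenous peak and its fold had a Spearman correlation of -0.55 over the replicate 1 pairs and of -0.81 over the replicate 2 pairs. Fold and width come from the same tags of 1 library, so this describes the list and not a separate measurement.

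**Figure D3:**
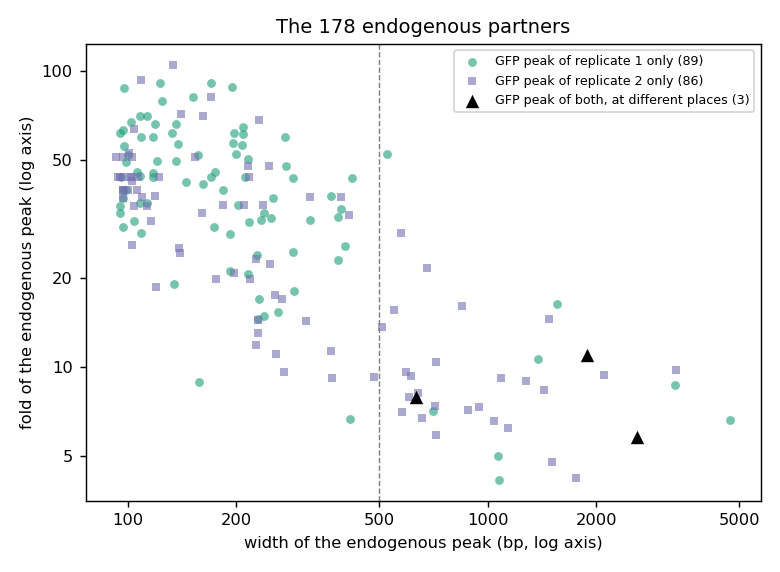
Width (bp) and fold of the 178 endogenous partners on log axes, by the LIN-42::GFP replicate of the single-replicate peaks they overlapped. The dashed line is at 500 bp. Right of the line all but 1 partner lie at a fold of 28.25 or less. The 3 partners with single-replicate peaks of both replicates (triangles) are among these.

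Where the partner was narrow, the GFP and endogenous summits, the positions of most tags, nearly coincided. The median distance between them was 13 bp over the 141 peaks, with 11 bp in replicate 1 and 13.5 bp in replicate 2. At wide partners it was 11 bp in replicate 1 (11 peaks) but 226 bp in replicate 2 (33 peaks). Of all 185 peaks, 103 had summits within 20 bp, 61 in replicate 1 and 42 in replicate 2, and in 4 and 2 of them the summits fell on the same base. Summits were over 200 bp apart at 24 peaks, 20 of which had a wide partner. For peaks found in all 3 lists the medians were 6 and 8 bp. Overlap with an endogenous peak was required of each peak, which by itself limits these distances.

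**Figure D4:**
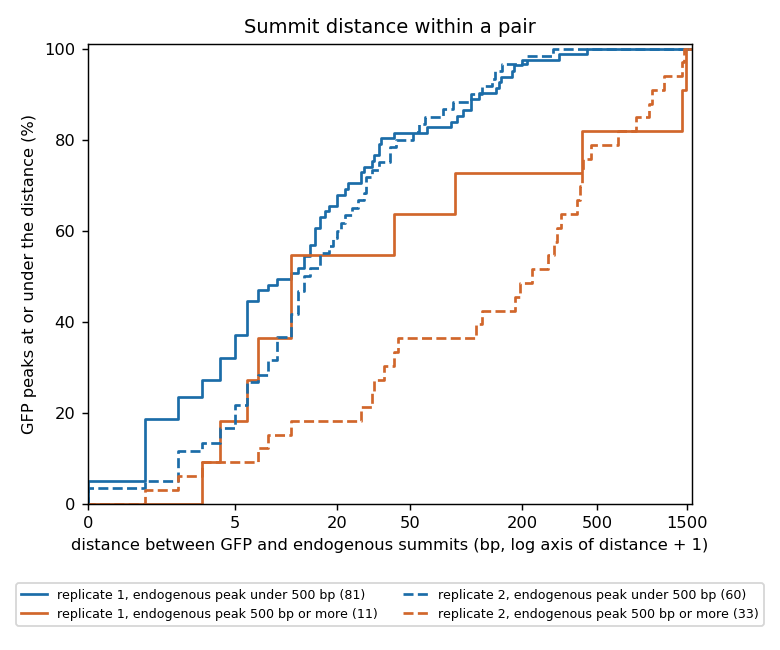
Cumulative share of GFP peaks (%) by the distance between their summit and that of the endogenous partner (bp, log axis of the distance plus 1), by replicate and by width of the partner. Both blue curves, for narrower partners, pass 50% below 20 bp, whereas the curve for wide partners of replicate 2 does so above 200 bp.

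The replicate 1 peak with most tags lay on chromosome X at chrX:2010872-2011406. It held 49 tags and was 630.92-fold over background, higher than 98.8% of the replicate 1 list. Its endogenous partner, chrX:2010883-2011407, had nearly the same ends, 88 tags and a fold of 52.38, with the summits 11 bp apart. Replicate 2 had nothing there, and its nearest peak, of 5 tags, was 1151 bp away. At 525 bp the partner counted among the wide ones, but its fold was the highest of them at replicate 1.

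Several other strong replicate 1 sites were narrow in both libraries. At chrI:2179885-2180034 replicate 1 had 17 tags (412.52-fold) and endogenous LIN-42 had 21 tags (65.79-fold), with summits 6 bp apart. At chrIV:1901249-1901380 these were 14 tags (339.72-fold) and 21 tags (65.79-fold), with summits 1 bp apart. At chrIII:2924942-2925113 they were 12 tags (291.19-fold) and 17 tags (90.7-fold), the largest endogenous fold of any replicate 1 partner. The nearest replicate 2 peaks were 18020, 9018 and 3320 bp away, so that these 3 sites, chosen after their values were seen, were not near misses of a replicate 2 peak.

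In other replicate 1 peaks of many tags the distance between summits varied. The peak at chrI:14855477-14856243 had 21 tags over 767 bp, and its partner had 6 tags within 234 bp, with summits 442 bp apart. At chrII:4130243-4130529 there were 19 tags (315.46-fold) beside an endogenous peak of 7, with summits 145 bp apart. The peaks at chrIII:3897030-3897496 (19 tags) and chrIV:13461647-13462258 (18 tags) had partners of 32 and 8 tags and summits 20 and 16 bp apart.

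In replicate 2 the sites with most tags were nearly all wide. The first, chrIII:5354808-5356566, held 71 tags over 1759 bp at 68.04-fold, and its partner had 46 tags over 882 bp at 7.16-fold. A replicate 1 peak of 8 tags lay 61 bp away without overlap. The next were chrIII:1017331-1018058 (35 tags, partner of 244 tags), chrV:17131262-17132049 (30 and 44 tags), chrIII:7445674-7446525 (29 and 175 tags) and chrX:7077562-7078408 (29 and 45 tags). All 8 replicate 2 peaks with most tags had a partner of 500 bp or more, against 3 of more than 1000 bp and 1 of 525 bp among the 8 of replicate 1. The peak of lowest fold, 7.79, was also among them, at chrX:14387154-14388143 with 22 tags and a partner of 77 tags at 4.8-fold.

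The partners with most tags included others of the same kind. At chrV:266148-266493 replicate 1 had 15 tags in a partner of 109 tags over 1553 bp, at chrX:1752292-1752722 it had 11 tags in a partner of 69 tags over 1378 bp, and at chrV:10606132-10606539 it had 8 tags in a partner of 48 tags over 1068 bp. In replicate 2, the peaks at chrIV:13360549-13360796 (7 tags) and chrIV:13361156-13361550 (10 tags) lay in the same partner of 109 tags over 1477 bp. The replicate 2 peak at chrV:5285218-5285554 had 22 tags and a partner of 44 tags over 508 bp.

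Narrow replicate 2 sites with a large fold existed as well, again chosen after their values were seen. The largest fold of replicate 2 at these sites, 289.32, belonged to chrI:11470886-11471047 with 14 tags, where the endogenous peak had 6 tags and the summits were 9 bp apart. At chrI:2198055-2198193 replicate 2 had 11 tags (227.32-fold) and endogenous LIN-42 had 14 tags (92.59-fold), with both summits on the same base. At chrV:12038458-12038621 there were 13 tags (166.16-fold) and 12 tags (71.43-fold), with summits 2 bp apart. Replicate 1 had no peak closer than 18020 bp to any of them, and at the middle site its nearest peak was the one at chrI:2179885-2180034 described above.

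Some folds recurred at equal tags. Of the 21 replicate 1 peaks with 4 tags, 11 had the same fold of 97.06, which was also the highest of the 21, and the lowest was 23.48. In replicate 2 the 20 such peaks ranged from 10.9 to 82.66-fold, with 4 of them at the highest value. The median fold over all sites was 97.06 in replicate 1 and 43.3 in replicate 2, and folds were compared within a list only.

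Some sites missed the other replicate by a short distance. Within 500 bp of the site, without overlap, the other replicate had a peak at 7 of 92 replicate 1 sites and 13 of 93 replicate 2 sites, against 5.26% of all replicate 1 peaks that replicate 2 lacked and 2.43% of all replicate 2 peaks that replicate 1 lacked. The partner was wide at 16 of these 20 sites and at 28 of the other 165. The neighbouring peak of the other replicate held 4 to 77 tags with a median of 11.5. Most sites were not of this kind, since the median distance to the other replicate was 12142.5 bp for replicate 1 and 18522 bp for replicate 2. Within 2000 bp the number was 38.

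The closest case was on chromosome III. The replicate 1 peak chrIII:2500591-2500744 (5 tags) ended on the base before the replicate 2 peak chrIII:2500745-2501713 (24 tags) began, and on its other side the replicate 2 peak chrIII:2500160-2500538 (7 tags) ended 52 bp short of it. A single endogenous peak of 146 tags covered 2605 bp there. At chrIII:1017331-1018058 in replicate 2 the gap to a replicate 1 peak of 11 tags was 5 bp. These sites lay just inside the choice of sites, and a shared peak with an endogenous partner lay just outside it at chrV:7989195-7989532, where the replicates overlapped by 8 bp.

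The other limit was the overlap with the endogenous peak. The smallest overlaps were 3 bp for the replicate 2 peak at chrIV:3208868-3209255 and 5 bp for that at chrX:5498189-5498306, and in replicate 1 the smallest was 30 bp, at chrI:10952076-10952557. Just outside were replicate 2 peaks that missed an endogenous peak by 7 bp at chrI:1441789-1441889 and by 8 bp at chrV:14769055-14769515, and a replicate 1 peak that missed one by 32 bp at chrIV:5465238-5465483. Such edges were not typical of the sites, whose overlap had a median of 131 bp in replicate 1 and 142 bp in replicate 2.

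The 3 endogenous peaks with sites of both replicates were all wide. On chromosome II, chrII:12844204-12846088 held 90 endogenous tags, with a replicate 2 peak of 9 tags near its left end and a replicate 1 peak of 33 tags over the rest of it, 196 bp apart. On chromosome III it was the peak of 2605 bp just described, with 5 and 7 tags. On chromosome V, chrV:4335300-4335930 held 27 tags, with a replicate 2 peak of 4 tags and a replicate 1 peak of 6 tags separated by 228 bp. In each case these single-replicate peaks lay in different parts of the same endogenous peak. The endogenous peak on chromosome III also overlapped a GFP peak that both replicates shared.

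Sites also came in runs. With sites within 10000 bp of each other joined, 41 of the 185 lay in 16 runs of at least 2 and 144 were alone, and 6 of the 16 runs held sites of both replicates. The 5 runs of 3 or more held 19 sites. In a run of 4 replicate 2 peaks on chromosome III (chrIII:7595611-7597199; 8, 9, 6 and 16 tags), the peaks followed each other along 2 endogenous peaks of 66 and 26 tags, and replicate 1 had none. Another run of 4 replicate 2 peaks (chrII:4641232-4645024; 15, 6, 16 and 8 tags) lay at endogenous peaks of 27 and 38 tags. The run at chrV:4333780-4335883 held replicate 1 peaks of 4 and 6 tags at its ends and replicate 2 peaks of 4 and 4 tags between them, at endogenous peaks of 26, 21 and 27 tags. The run at chrI:10946490-10952557 also held 2 sites of each replicate. In those 4 runs the endogenous peaks had folds of 6.68 to 10.41.

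In the fifth run all partners were under 500 bp. At chrIII:1260371-1261595 there were 3 replicate 2 peaks of 10, 12 and 8 tags at 144.66, 165.32 and 139.8-fold, with endogenous partners of 9, 7 and 8 tags. The middle GFP peak also reached the partner of the last one. Those partners were 219 to 269 bp wide, and their summits lay 39, 18 and 4 bp from the GFP summits.

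**Figure D5:**
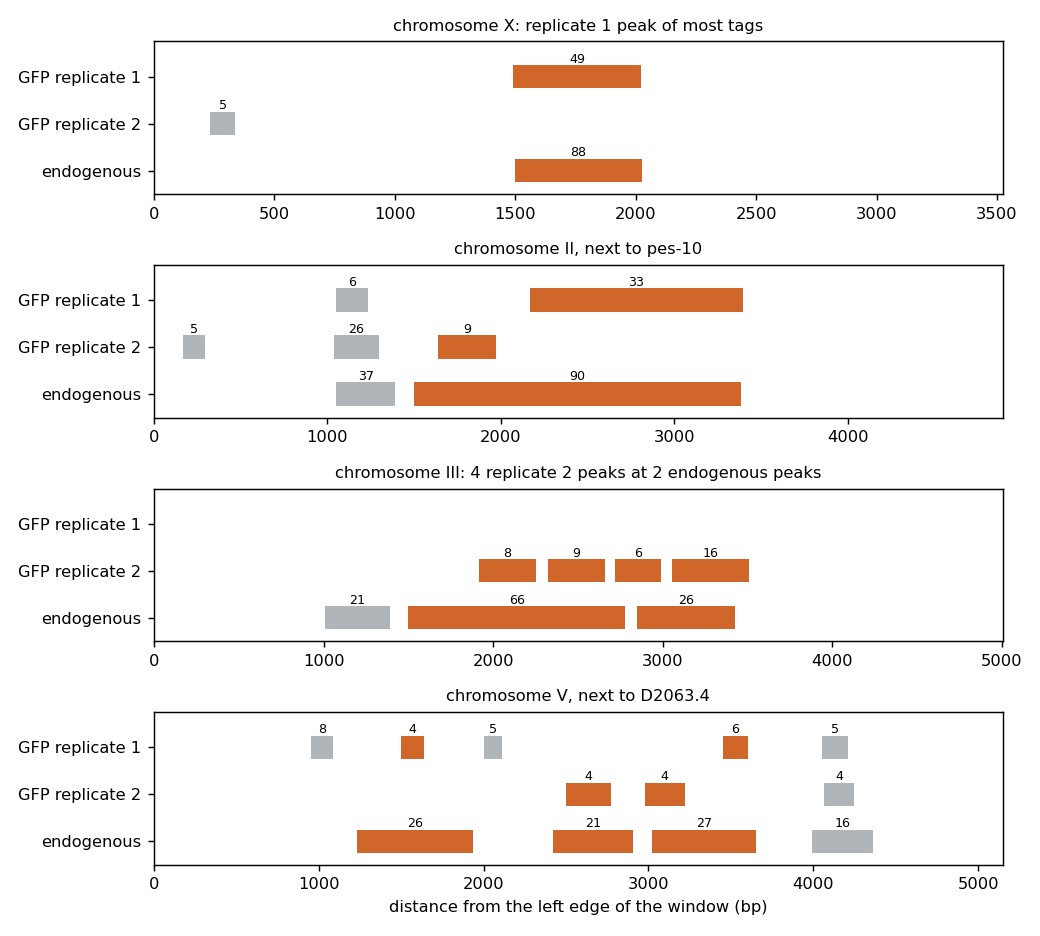
Peaks of the 3 lists at 4 sites, drawn to scale by distance (bp) from the left edge of each window, with the tags of each peak above it. Orange marks the single-replicate GFP peaks and their endogenous partners, and grey marks other peaks. The GFP and endogenous peaks coincide on chromosome X (49 and 88 tags), whereas in the other maps shorter GFP peaks of 4 to 33 tags lie along longer endogenous peaks.

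Genes could be named for a few of the sites. The authors annotated only regions that the LIN-42::GFP replicates shared, so a gene is given here when such a region overlapped the site, lay within 2000 bp of it or shared its endogenous peak, and it is then the gene of that neighbouring region. This held for 26 of the 185 sites (7 of replicate 1 and 19 of replicate 2) and 20 genes, 3 of them non-coding, and 8 of the 26 overlapped an annotated region itself. The partner was wide at 21 of the 26 and at 23 of the other 159. For those 159 sites no gene is given, so the genes describe mainly the wide sites.

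The gene with most sites was D2063.4, with the 4 sites of the run on chromosome V by its promoter. The widest partner, chrX:109554-114259, lay by the promoter of Y73B3A.5 and held 580 tags, at which replicate 1 had an unshared peak of 22 tags at the left end. Downstream of fbxa-28, which encodes an F-box protein of the kind that picks proteins for ubiquitination, replicate 1 had 26 tags at chrIII:1300175-1301137 within an endogenous peak of 389 tags. Both of these endogenous peaks also carried peaks of replicate 2, of which the nearest were 113 and 117 bp away.

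Among regulators, the replicate 2 site with the overlap of 3 bp given above, of 11 tags, lay near an annotated region in an intron of puf-4, which belongs to the Pumilio family of RNA-binding proteins. A replicate 1 peak of 40 tags lay 682 bp from that site, whose endogenous partner also overlapped a GFP peak that both replicates shared. By the promoter of efl-2, a relative of the E2F cell-cycle transcription factors, replicate 2 had 9 tags (chrII:13406507-13406700) and endogenous LIN-42 had 5 within 120 bp, a narrow site. A replicate 1 peak of 13 tags lay 450 bp from it. Near a region downstream of ell-1, whose product is related to the transcription elongation factor ELL, replicate 2 had 26 tags at chrIV:4416746-4417229, and it had 11 tags next to that site at chrIV:4417475-4417713. The endogenous peaks there held 35 and 67 tags.

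Among genes of metabolism and transport, alh-12, an aldehyde dehydrogenase gene, had the replicate 2 peak of 29 tags on chromosome III by its promoter. A replicate 1 peak of 31 tags lay 286 bp from that peak, whose endogenous partner also overlapped a GFP peak that both replicates shared. Near the promoter region of haf-7, which encodes a half-molecule ABC transporter, replicate 2 had a peak of 4 tags at chrV:14768771-14769030, and a replicate 1 peak of 77 tags lay 360 bp away. The site downstream of pes-10, a gene first found by its pattern of expression in embryos and the source of a minimal promoter used in many worm reporters, was the endogenous peak on chromosome II with 33 tags of replicate 1 and 9 of replicate 2. By Y32H12A.9 and Y34F4.1 lay the replicate 2 peaks of 71 and 35 tags on chromosome III.

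Of the 185 sites, 0 lay in the regions used as reporters of let-7, lin-4, mir-1 and col-12. These regions are short, such as chrX:14742029-14749245 for let-7. The share of all peaks that lay in them was not counted, so nothing is concluded from that 0. None of the genes named at sites was on a list of 14 heterochronic genes, of 8 worm relatives of clock genes, of 8 molting genes or of the microRNA genes. Since only 26 sites could be given a gene, this does not show that such genes were without a site.

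The sites were spread over all chromosomes, with 11 to 18 per chromosome in replicate 1 and 14 to 18 in replicate 2. In the outer 25% of the span of peaks at either end of each chromosome lay 57 of 92 sites of replicate 1 (62.0%, 95% Wilson interval 51.7% to 71.2%) and 61 of 93 of replicate 2 (65.6%, 55.5% to 74.5%). The whole lists had 64.1%, 56.0% and 61.3% of their peaks there, and peaks of all 3 lists had 71.5%. Both intervals included the share of the whole list that the sites came from. Neighbouring sites are not independent, which the intervals do not count.

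The number of sites depended on the strictness of the endogenous list. With endogenous peaks at a MACS p-value of 1e-10 or below, 60 replicate 1 and 48 replicate 2 sites and 103 partners were left. Leaving out peaks within 2000 bp of another of their list, a filter on distance and not on width, gave 93 sites in replicate 1 and 50 in replicate 2. Of these sites, 3 had a wide partner. These were chosen anew from the remaining peaks, so they can include peaks that were shared before.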

How the data were processed

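Peak lists of 3 ChIP libraries were analysed; the 2 input samples entered only as controls named in the list headers, whose numbers (2 and 3) differ from those in the sample labels (1 and 2). The authors aligned reads to ce10 with Bowtie2, kept uniquely aligned reads and called peaks in each library alone with MACS (1.4.2 in the list headers, p-value of 1e-05). Tags of a deposited peak are a raw count, with 1 tag kept per position. The deposited score is the p-value of MACS as a negative log10, multiplied by 10, the deposited fold enrichment is the ratio of tags at the summit to the MACS background, and only the LIN-42::GFP lists hold the authors' percent (%) of false discoveries. Each column was used for its own library and 0 columns were left unmapped. The share of aligned tags removed as redundant was 95%, 99% and 95%, so the depth left is small and all counts of few tags are imprecise.

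Coordinates were read as 1-based and closed, and an overlap was at least 1 bp. Where a GFP peak overlapped several endogenous peaks, the one with the largest overlap served as its partner (4 peaks had 2). Shares have 95% Wilson intervals, and no test was run, because the choice of sites used the peak calls themselves. The sites and gene lists were chosen with earlier results of these data known. Sites to name were drawn from a rule, and those closest to its limits are named in part; it takes, per replicate, the 8 with most tags, the 8 with most endogenous tags, and the 3 nearest to each limit of the choice, besides all endogenous peaks with sites of both replicates, runs of 3 or more, sites with genes of the lists and sites in reporter regions; narrow sites of large fold and the genes of neighbouring regions were picked with the values in view. The overlap steps were run on simulated data, and in 50 of 50 simulated sets of 3 lists the numbers of sites and partners equalled those planted. Only the numbers were compared. The planted sites were kept far apart, so the sets held no clustered peaks or near misses of the kind seen here. Alternatives changed the overlap, the distance between replicates, the p-value, the false discovery rate, clustered peaks and the replicates used. Neither sequence nor gene models of ce10 entered the analysis. The computation ran in Python 3.11.15 with pandas 2.3.3, NumPy 2.4.6 and SciPy 1.17.1, and figures were drawn with Matplotlib 3.10.9.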

Additional observations from a re-analysis of the deposited data

How the results depend on the processing

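Of 111 values under alternative settings, 27 moved beyond the tolerance and 84 did not (for a count, 1.5 times; for a share, its interval; for a median, 1 SD over the sites, which is wide). Of the 84, 4 medians shifted by over 1.5 times. The median summit distance of 16 bp was 10 bp at a p-value of 1e-10 in all lists, 8 bp without clustered peaks and 27 bp for replicate 2 alone, and the median of 7 tags in replicate 2 was 13.5 at that p-value. With endogenous peaks at a p-value of 1e-10 or below, the sites fell to 60 and 48, the partners to 103, the shares of single-replicate peaks with a partner to 10.9% and 2.20%, the sites within 500 bp of the other replicate to 10 and those with a wide partner to 25. At that p-value in all 3 lists, replicate 2 had 44 sites and a share of 2.42%, with 11 sites near the other replicate and 26 with a wide partner. Sites were chosen anew from filtered lists, so a GFP peak could become a single-replicate site when its counterpart was removed. Without clustered peaks replicate 2 had 50 sites and a share of 2.66%, 0 sites had the other replicate within 500 bp, and 3 had a wide partner. Asking for no peak of the other replicate within 500 bp left 28 sites with a wide partner, and within 2000 bp left 19 and a share of 3.42% for replicate 2. Within 200 and 2000 bp of the other replicate lay 10 and 38 sites, 24.9% of the sites lay in the outer 10% of chromosomes at either end, and 21 had a partner of 1000 bp or more. Counted from a single replicate, there were 89 to 92 partners, 7 to 13 sites near the other replicate and 11 to 33 with a wide partner. The alternatives on wide partners and on median tags were chosen after seeing the data. No paired analysis was possible because the results come from no test and the endogenous library has no replicate. Depth limits every absence, since a site of under 4 or 5 tags could not be called.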

Other observations

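Strength in one library did not always go with strength in the other. The partner with the largest endogenous fold, 104.62 with 29 tags at chrIV:13549406-13549539, lay at a replicate 2 peak of 4 tags and 10.9-fold (chrIV:13549402-13549504), near the bottom of its list by fold, with summits 20 bp apart. In the opposite case, the replicate 2 peak at chrI:915162-915305 had 11 tags and 227.32-fold, and its partner had 5 tags, the fewest an endogenous peak could have, with summits 12 bp apart. These sites were chosen after their values were seen, and no cause was tested.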
